A study of Mus musculus with 15 samples.

Results

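The genes described here carry out antigen presentation by MHC class I and make up the inducible part of the proteasome: B2m, Tap1, Tap2, Tapbp, Psmb8, Psmb9, Psmb10, H2-K1, H2-D1 and Nlrc5. A gene was represented by a probe set to which the array's annotation gives that gene symbol alone. Where there were several, the one of highest mean over the arrays was taken. Of the 10 genes 9 were measured in this way, out of 12848 genes on the arrays, and H2-D1 was not, because its probe set also carries H2-Q2. RNA came from the aorta of C57BL6 mice aged 2 months, cleaned of fat and loose connective tissue from the root to the iliac bifurcation, with 1 Affymetrix array per mouse. Osmotic mini-pumps under the skin delivered angiotensin II (AngII) at 1 µg/kg/min to 8 mice and physiological saline (vehicle) to 7 mice for 3 weeks. The comparison asks how the vessel wall differs between hypertensive and normotensive mice. All values are log2 signals after robust multiarray analysis (RMA), and a probe set's level is compared only between arrays. The mean of 8 smooth muscle markers lay between 10.9 and 11.6 in every array. The samples carry names of 2 kinds, here called series A (vehicle 1 and 2, AngII 1 to 3) and series B (vehicle 3 to 7, AngII 4 to 8).

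MHC class I molecules show peptides from inside the cell to CD8 T cells and are made by almost every nucleated cell. Proteasomes cut proteins into peptides, the transporter made of Tap1 and Tap2 carries these into the endoplasmic reticulum, tapasin helps to load them, and the heavy chain with its peptide and beta-2 microglobulin travels to the surface. Interferons, above all interferon gamma, raise the whole set, and under them the catalytic subunits encoded by Psmb8, Psmb9 and Psmb10 replace those encoded by Psmb5, Psmb6 and Psmb7 in newly built proteasomes. The transactivator Nlrc5 acts at the X and Y boxes of class I promoters. In the vessel wall both resident cells and infiltrating leukocytes can express these genes.

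The promoters are shown because they hold the elements through which these genes are known to be controlled together. RefSeq's table for GRCm38.p6 gave windows of 300 bases, 250 before and 50 after the start, for 8 of the 10 genes. It holds none for Tap2 and Nlrc5. Both strands were searched for TGACG, the core of the X2 box, for ATTGG, the Y box, for both in this order with 20 bases between, for the interferon-stimulated response element (GAAA, any 2 bases, then GAAA) and for the gamma-activated site (TTC, any 3 bases, then GAA). TGACG was found in 20.8% and ATTGG in 37.4% of all 32851 promoter windows, but both at the fixed distance in 31 windows, 0.0944%. B2m, H2-K1 and H2-D1 were among those with the fixed distance. The exact string searched for as the interferon-stimulated response element was found in 3.44% of windows, and of the 8 genes only in B2m. The capitals mark the interferon-stimulated response element, TGACG and ATTGG in the B2m window (chr2:122147437-122147736, plus strand) and the latter pair in the H2-K1 window (chr17:34000284-34000583, minus strand), with TGACG 78 and 55 bases before the start. A further TGACG just after the start of B2m and a further ATTGG just before that of H2-K1, both on the other strand, are left in lower case.
B2m: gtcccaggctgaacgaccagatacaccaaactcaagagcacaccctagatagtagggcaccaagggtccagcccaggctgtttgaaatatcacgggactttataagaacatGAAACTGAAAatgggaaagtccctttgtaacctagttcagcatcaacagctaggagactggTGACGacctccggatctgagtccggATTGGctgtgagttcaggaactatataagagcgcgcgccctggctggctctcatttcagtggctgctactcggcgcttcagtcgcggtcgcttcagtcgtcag
H2-K1: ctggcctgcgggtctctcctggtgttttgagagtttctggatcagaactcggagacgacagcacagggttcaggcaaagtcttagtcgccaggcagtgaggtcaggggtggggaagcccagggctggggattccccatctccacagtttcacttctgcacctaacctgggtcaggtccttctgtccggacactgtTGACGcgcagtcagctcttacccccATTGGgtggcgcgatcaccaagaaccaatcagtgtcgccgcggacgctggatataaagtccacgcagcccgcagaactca

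The Psmb8 window (chr17:34197945-34198244, plus strand) holds a gamma-activated site, in capitals, as do 8.3% of all windows. Tap1 (chr17:34187306-34187605, plus strand) has TGACG and, on the other strand, ATTGG, read here as CCAAT, both in capitals, but not at the distance found in B2m and H2-K1. Its window shares 275 bases (chr17:34187306-34187580) with that of Psmb9, which is read from the opposite strand and starts 226 bases away. Psmb9, Tap1, Psmb8 and Tap2 follow each other on chromosome 17 with no other coding gene between them in the RefSeq table. In the window of Psmb10, on chromosome 8, none of these motifs was found. A match is a run of letters only and does not show that a factor binds there. Variants of an element that differ from the searched string were missed, so no match does not show that the element is absent.
Psmb8: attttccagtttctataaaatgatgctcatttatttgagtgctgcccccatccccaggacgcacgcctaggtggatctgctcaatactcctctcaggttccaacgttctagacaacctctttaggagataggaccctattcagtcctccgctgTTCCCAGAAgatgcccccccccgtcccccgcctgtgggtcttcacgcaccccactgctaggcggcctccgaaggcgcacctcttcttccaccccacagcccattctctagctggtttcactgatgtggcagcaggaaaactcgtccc
Tap1: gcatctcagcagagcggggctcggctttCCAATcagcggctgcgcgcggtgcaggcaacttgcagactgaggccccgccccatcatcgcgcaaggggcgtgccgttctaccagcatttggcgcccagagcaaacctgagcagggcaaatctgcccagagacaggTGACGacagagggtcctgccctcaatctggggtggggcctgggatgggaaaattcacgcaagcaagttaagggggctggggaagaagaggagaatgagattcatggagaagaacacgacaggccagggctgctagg

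In AngII-infused aortae Psmb8, a catalytic subunit of the immunoproteasome, was 1.48-fold higher, and it was the only one of the 9 genes to pass the test over all probe sets (limma, Benjamini-Hochberg adjusted p under 0.05). The mean of AngII arrays was above that of vehicle arrays for all 9 genes, beside 47.4% of all probe sets. Their log2 fold changes ran from 0.08 for Tap2 to 0.57 for Psmb8 with a median of 0.33, while the median over 12848 genes was -0.0099. The 95% interval included 0 for 4 of the 9 genes. At an adjusted p under 0.05, limma called 5.33% of the 15095 probe sets, 2.42% as higher and 2.91% as lower (2.55% and 3.03% with 1 probe set per gene). At an unadjusted p under 0.05, 5 of the 9 genes were higher, beside 9.29% of probe sets. For none of the 9 genes did all AngII arrays lie above all vehicle arrays, which held for 0.55% of probe sets. RNA from whole aortae does not separate more cells of a type from more RNA per cell.

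**Figure D1:**
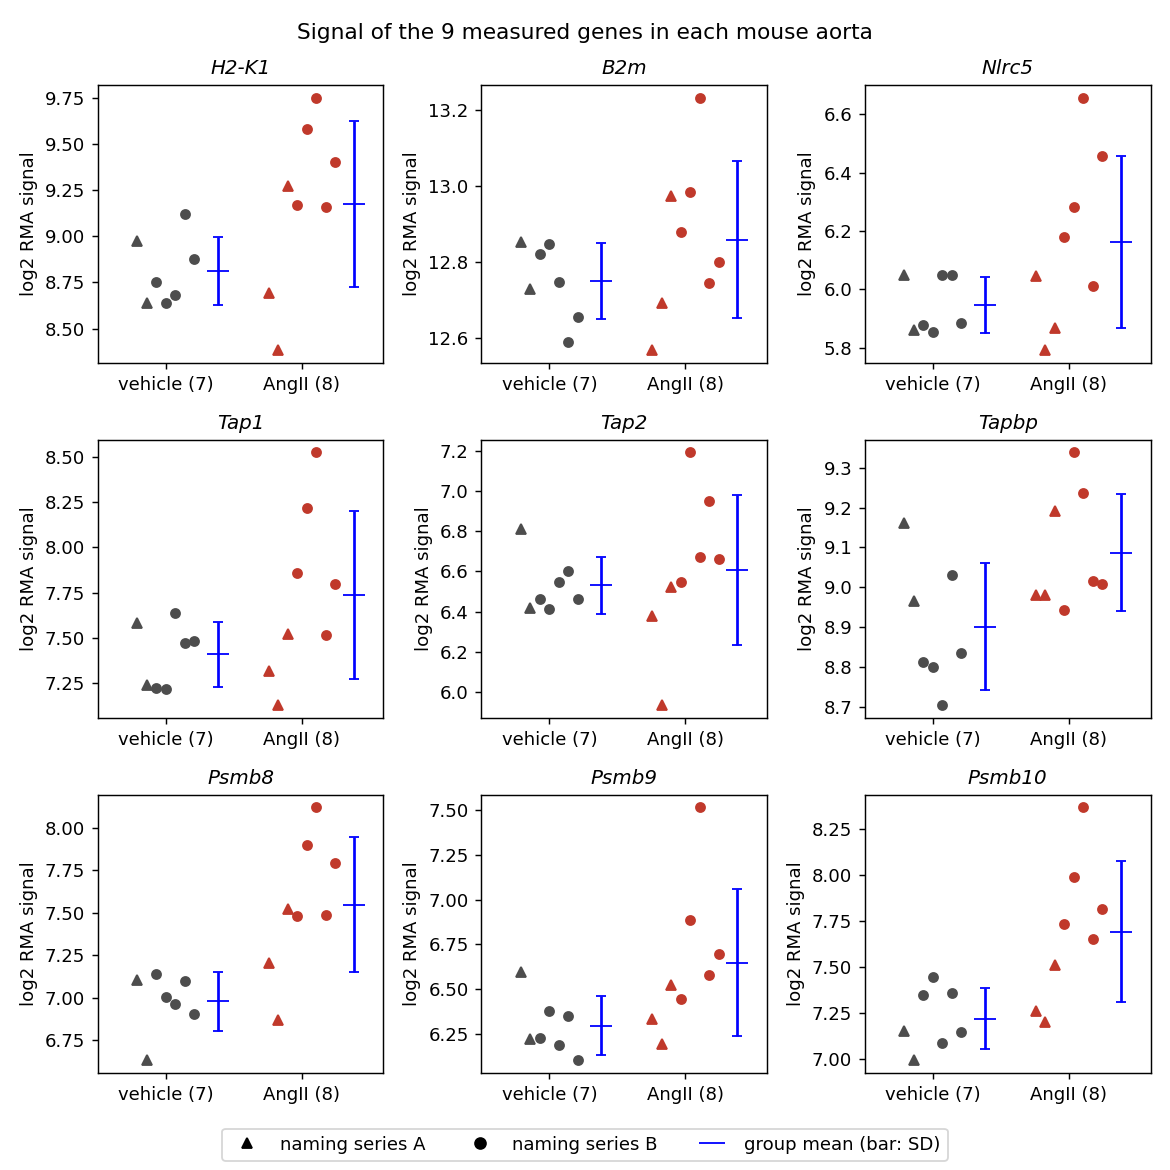
Log2 signal of each of the 9 measured genes (vertical axis) in every array, for 7 vehicle and 8 AngII arrays, with bars for the group mean and SD. The AngII arrays spread further than the vehicle arrays in every panel except Tapbp, and AngII 6 is the highest array in 7 panels.

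The immunoproteasome genes Psmb8 and Psmb10 had the largest log2 fold changes of the 9 genes, ahead of H2-K1 and Psmb9. Psmb8, whose product LMP7 cuts after hydrophobic residues, had log2 signals from 6.63 to 7.14 in vehicle arrays with a median of 7.00, and from 6.87 to 8.12 in AngII arrays with a median of 7.50. Of the 8 AngII arrays 7 were above the highest vehicle array, and only AngII 2 lay within the vehicle range. The means were 6.98 ± 0.175 (SD, n = 7) and 7.55 ± 0.396 (SD, n = 8), a log2 fold change of 0.57 (standard error, SE, 0.149, limma adjusted p = 0.0368). A two-sided exact permutation test on Psmb8 alone gave p = 0.00451, where 7 arrays against 8 allow no p below 0.000155. The limma call was close to the threshold and ended without any 1 of 9 arrays (vehicle 2, 4, 5 or 7, AngII 3, 4, 5, 7 or 8), with adjusted p from 0.0514 to 0.0856 and log2 fold changes from 0.51 to 0.58.

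Psmb10, which encodes the subunit MECL-1, ranged from 6.99 to 7.44 in vehicle arrays (median 7.15) and from 7.20 to 8.36 in AngII arrays (median 7.69). AngII 1 and 2 lay inside the vehicle range and the other 6 AngII arrays above it. The log2 fold change of Psmb10 was 0.47 (SE 0.143, 95% interval 0.17 to 0.77), which missed the threshold (limma adjusted p = 0.0667) although the exact permutation test on this gene alone gave p = 0.00824. Without AngII 1 or AngII 2 limma called Psmb10 as higher, at 0.53 (adjusted p = 0.0442) and 0.54 (adjusted p = 0.0308). Without any other single array it was not called, with a limma adjusted p of up to 0.136 and a log2 fold change as low as 0.37.

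Psmb9, which encodes the subunit LMP2, had log2 signals from 6.10 to 6.60 in vehicle arrays (median 6.23) and from 6.20 to 7.52 in AngII arrays (median 6.55). The groups overlapped widely for Psmb9, with 3 of 8 AngII arrays above the highest vehicle array, vehicle 1. The means were 6.30 ± 0.164 (SD, n = 7) and 6.65 ± 0.410 (SD, n = 8), and the log2 fold change was 0.35 (SE 0.152, 95% interval 0.03 to 0.67, limma adjusted p = 0.187, exact permutation p = 0.0351).

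The constitutive counterparts of these subunits had log2 fold changes near 0: Psmb5 had 0.03 (95% interval -0.19 to 0.26), Psmb6 had -0.0047 (-0.13 to 0.12) and Psmb7 had -0.03 (-0.21 to 0.15), with adjusted p of 0.882, 0.976 and 0.858 from limma. The difference of each inducible subunit from its counterpart was then taken within each array, which cancels effects common to both probe sets. The log2 ratio of Psmb8 over Psmb5 averaged -1.18 ± 0.200 (SD, n = 7) under vehicle and -0.64 ± 0.430 (SD, n = 8) under AngII, 0.53 higher (two-sided exact permutation test, p = 0.00591, adjusted p = 0.00886 over 3 ratios). That of Psmb10 over Psmb7 was -1.94 ± 0.128 (SD, n = 7) and -1.43 ± 0.382 (SD, n = 8), 0.50 higher (exact p = 0.00357, adjusted p = 0.00886). For both ratios 5 of 8 AngII arrays lay above the highest vehicle array. That of Psmb9 over Psmb6 was -2.01 ± 0.167 (SD, n = 7) and -1.66 ± 0.475 (SD, n = 8), a difference of 0.36 that did not pass (exact p = 0.0682, adjusted p = 0.0682). It passed without AngII 1 (0.41, adjusted p = 0.0431), AngII 2 (0.43, adjusted p = 0.0256) or AngII 3 (0.41, adjusted p = 0.0484) in the same exact permutation test. Without any other single array it did not pass, and the adjusted p reached 0.132 in that test. In AngII 6 the ratio of Psmb8 over Psmb5 was 0.23, while it was below 0 in the other 14 arrays, but the probes of both sets differ in brightness, so 0 does not mean equal amounts of mRNA.

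**Figure D2:**
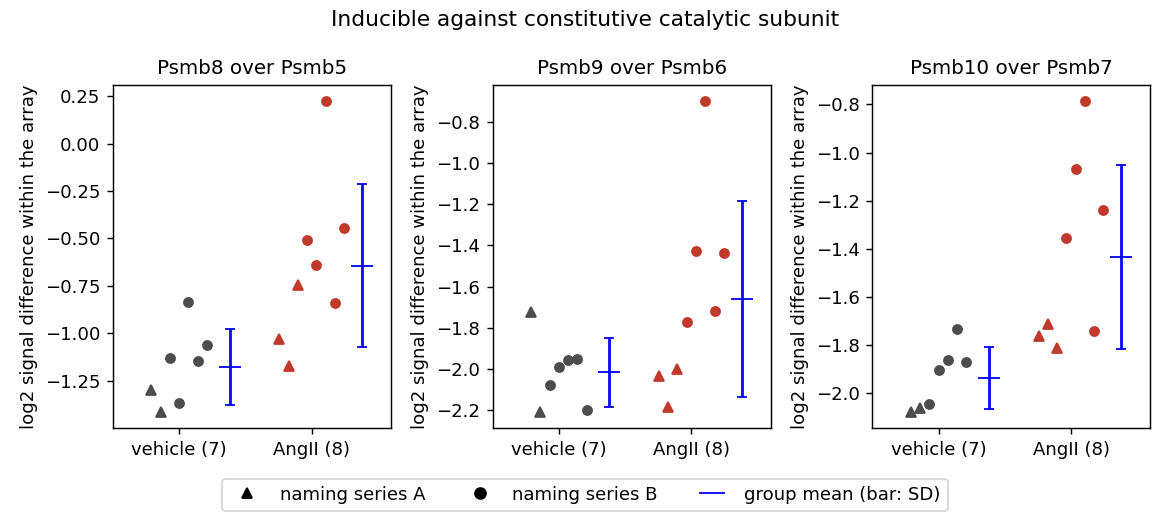
Log2 ratio within each array (vertical axis) of Psmb8 over Psmb5, Psmb9 over Psmb6 and Psmb10 over Psmb7 for 7 vehicle and 8 AngII arrays, with bars for the group mean and SD. The mean is higher in AngII arrays by 0.53, 0.36 and 0.50, and the groups overlap in each panel.

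The heavy chain, its light chain and the transactivator did not pass limma's test over the 15 arrays. H2-K1, a classical class I heavy chain, had log2 signals from 8.64 to 9.12 in vehicle arrays (median 8.75) and from 8.38 to 9.75 in AngII arrays (median 9.22). Of the AngII arrays 6 lay above the highest vehicle array, while AngII 2 lay below the lowest one. The log2 fold change of H2-K1 was 0.36 (SE 0.167, 95% interval 0.01 to 0.72, limma adjusted p = 0.216, exact permutation p = 0.0706). Without AngII 2 alone it was 0.48 and limma called it as higher (adjusted p = 0.0486). Without any other single array it was not called, with a limma adjusted p of up to 0.348 and a log2 fold change as low as 0.28. Heavy chain genes are near copies of each other, so part of the H2-K1 signal may come from the others.

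B2m, the light chain shared by all class I molecules, ranged from 12.59 to 12.85 in vehicle arrays (median 12.75) and from 12.57 to 13.23 in AngII arrays (median 12.84). Its groups overlapped, with 4 AngII arrays above the highest vehicle array and AngII 1 below the lowest one. Its log2 fold change was 0.11 (SE 0.0844, 95% interval -0.07 to 0.29, limma adjusted p = 0.471, exact permutation p = 0.227). Nlrc5 had log2 signals from 5.86 to 6.05 in vehicle arrays (median 5.89) and from 5.79 to 6.66 in AngII arrays (median 6.11). By its mean over the arrays Nlrc5 was among the dimmest 25% of probe sets. Of the AngII arrays 4 were above all vehicle arrays for Nlrc5. The log2 fold change was 0.22 (SE 0.110, 95% interval -0.02 to 0.45, limma adjusted p = 0.268, exact permutation p = 0.0892).

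The genes of peptide transport and loading did not pass either. Tap1 ranged from 7.22 to 7.64 in vehicle arrays (median 7.48) and from 7.13 to 8.52 in AngII arrays (median 7.66). AngII 4, 5, 6 and 8 were above the vehicle range and AngII 2 was below it. The log2 fold change of Tap1 was 0.33 (SE 0.170, 95% interval -0.03 to 0.69, limma adjusted p = 0.279, exact permutation p = 0.110). Tap2, the other chain of the transporter, ranged from 6.41 to 6.81 in vehicle arrays (median 6.46) and from 5.93 to 7.19 in AngII arrays (median 6.60). AngII arrays thus reached further than vehicle arrays at both ends. Tap2 had a log2 fold change of 0.08 (SE 0.139, 95% interval -0.22 to 0.37, limma adjusted p = 0.791, exact permutation p = 0.632), and of -0.0079 (adjusted p = 0.984) without AngII 5.

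Tapbp, which encodes tapasin, was the one gene whose AngII arrays did not spread further than the vehicle arrays. Its log2 signals lay between 8.70 and 9.16 in vehicle arrays (median 8.83) and between 8.94 and 9.34 in AngII arrays (median 9.01), and 4 of 7 vehicle arrays lay below the lowest AngII array. The means were 8.90 ± 0.159 (SD, n = 7) and 9.09 ± 0.147 (SD, n = 8), a log2 fold change of 0.19 (SE 0.0790, limma adjusted p = 0.180, exact permutation p = 0.0407). Another probe set of Tapbp had a log2 fold change of 0.04 (limma adjusted p = 0.769). Of the 9 genes 4 had an exact p under 0.05 by themselves, namely Tapbp, Psmb8, Psmb9 and Psmb10, beside 9.03% of probe sets that were higher at such a p.

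The AngII-infused mice differed among themselves more than the vehicle-infused mice in the level of these genes, in a way that the genes shared. The SD of the AngII arrays was larger than that of the vehicle arrays for 8 of the 9 genes, from 0.147 to 0.464 beside 0.0954 to 0.185. The share of all probe sets with a larger SD under AngII is not given here. A wider spread was not particular to the 9 genes. It also held for each of the 4 measured MHC class II genes, such as H2-Aa (0.688 beside 0.367) and H2-DMa (0.456 beside 0.169). AngII 6 was the highest AngII array for 7 genes, and AngII 5 was the highest for Tap2 and Tapbp. AngII 2 was the lowest for 7 genes, with AngII 1 the lowest for B2m and AngII 4 for Tapbp. Averaged over the 9 genes, AngII 6 lay 0.507 and AngII 5 lay 0.317 above the mean of their group, and AngII 2 lay -0.482 and AngII 1 lay -0.303 from it. Vehicle arrays lay from -0.127 to 0.160 from theirs.

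**Figure D3:**
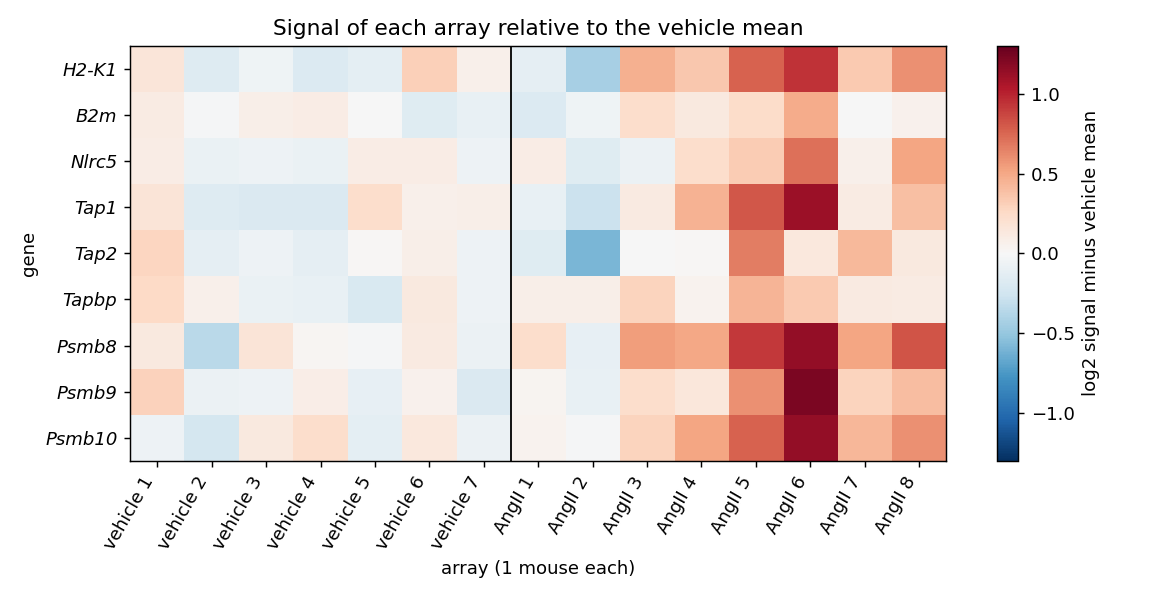
Log2 signal minus the mean of the vehicle arrays, by colour, for 9 genes (rows) in 15 arrays (columns). AngII 5 and AngII 6 are above the vehicle mean for each of the 9 genes, and AngII 2 is below it for 8, all but Tapbp.

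The low AngII arrays belong to series A and the high ones to series B, so the change was also computed within each series. In series B, with 5 arrays of each group, the log2 fold change was above 0 for all 9 genes (46.6% of probe sets), and limma called 3 of the 9 as higher (1.37% of probe sets). These were Psmb8 (0.73, adjusted p = 0.0278), Psmb10 (0.63, adjusted p = 0.0380) and H2-K1 (0.60, adjusted p = 0.0435). In that series the groups did not overlap for these 3 genes and for Psmb9, as for 2.56% of probe sets. The lowest AngII and the highest vehicle signal there were 7.48 and 7.14 for Psmb8, 7.65 and 7.44 for Psmb10, 9.16 and 9.12 for H2-K1, and 6.45 and 6.38 for Psmb9. The others had log2 fold changes in series B of 0.57 for Tap1 (adjusted p = 0.0868), 0.58 for Psmb9 (0.0873), 0.37 for Nlrc5 (0.0920), 0.27 for Tapbp (0.124), 0.31 for Tap2 (0.153) and 0.20 for B2m (0.270), all from limma.

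In series A, with 2 vehicle and 3 AngII arrays, limma called none of the 9 genes (0.0464% of probe sets were called as higher) and none at an unadjusted p under 0.05. Psmb8 and Psmb10 had log2 fold changes of 0.33 and 0.25 there (adjusted p = 0.662 and 0.579 from limma). The other 7 genes were below 0, from -0.0138 for Tapbp to -0.34 for Tap2, while 47.1% of probe sets were above 0. The difference between the series, tested as an interaction in limma, was above 0 for all 9 genes (46.8% of probe sets) and ran from 0.24 for B2m to 0.66 for Tap1. None of the 9 passed (adjusted p from 0.729 to 0.750), and over all probe sets limma called 0 (0%). At an unadjusted p under 0.05, 5 of the 9 were above 0 (Tap1, Tap2, Psmb9, H2-K1 and Nlrc5), beside 2.54% of probe sets. What the kinds of names stand for is not given in the sources used here.

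**Figure D4:**
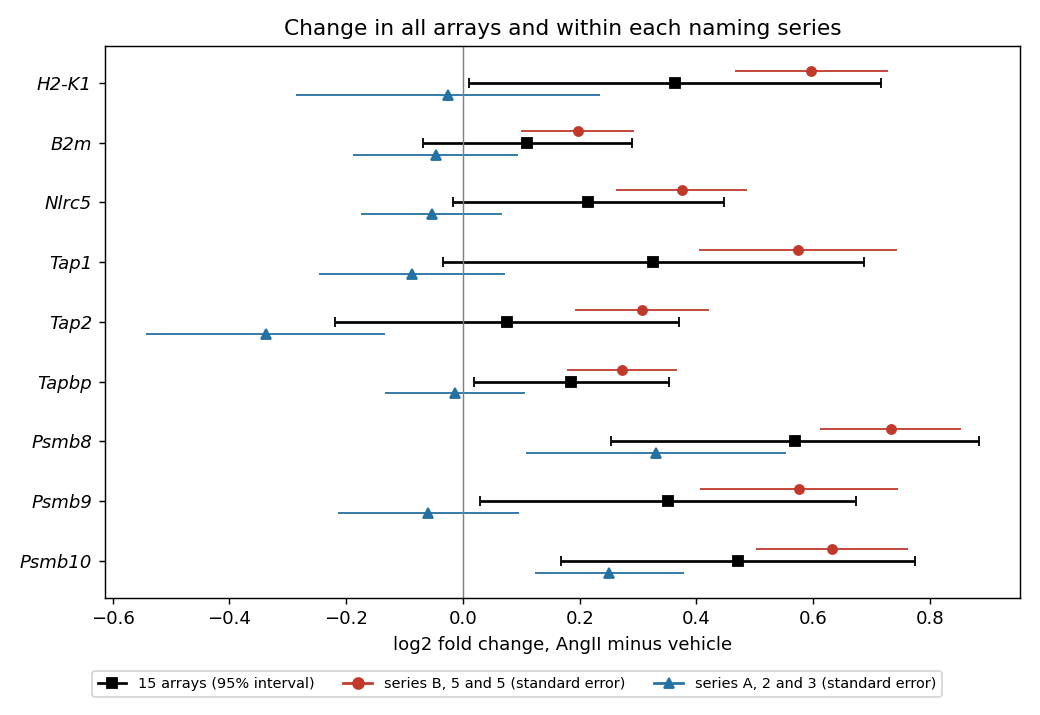
Log2 fold change of AngII over vehicle (horizontal axis) for the 9 genes over 15 arrays with its 95% interval, and within series B (5 and 5 arrays) and series A (2 and 3 arrays) with standard errors. Series B lies to the right of series A for each gene, and in series A only Psmb8 and Psmb10 lie above 0.

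After group means were subtracted, each pair of the 9 genes correlated positively over the 15 arrays, with Pearson's r from 0.323 to 0.922 and a median of 0.732 over 36 pairs. The genes share arrays, so these values describe the pattern above and carry no test. Tapbp and Tap2 were least like the rest, with a median r of 0.478 and 0.557, and Psmb8 and Tap1 most, with 0.828 and 0.818. For Psmb9 and Tap1, the neighbours with a shared promoter window, r was 0.864 and Spearman's rho 0.654 over all arrays (permutation tests, p = 0.00017 and 0.0102). With group means subtracted, r was 0.829 and rho 0.55 (permutation tests, p = 0.00017 and 0.035). Within series B, r was 0.862 and rho 0.685 over 10 arrays (permutation tests, p = 0.00195 and 0.0339), and with group means subtracted there r was 0.710 and rho 0.370 (permutation tests, p = 0.024 and 0.296). Tap1 was at least as close to genes that share no window with it: with group means subtracted its r was 0.871 with Nlrc5, 0.858 with H2-K1 and 0.843 with Psmb8. Much of r rested on a few arrays: without AngII 6 and AngII 5 it was 0.549 over all arrays (permutation test, p = 0.0535) and 0.434 in series B (permutation test, p = 0.279). This was the only relation between a pair of genes that was tested.

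Outside the 9 genes, those whose pattern within the groups was most like their standardized mean were Gbp3, Uba7, Vsig2, Stat2 and Ly6e, with r from 0.941 to 0.906 over 15 arrays. Gbp3 encodes an interferon-induced guanylate-binding protein, Uba7 the enzyme that activates the ubiquitin-like ISG15, Stat2 a signal transducer of type I interferon and Ly6e an interferon-induced membrane protein. None of them passed the test between groups. Their log2 fold changes were 0.44 for Gbp3, 0.26 for Uba7, 0.21 for Vsig2, 0.41 for Stat2 and 0.14 for Ly6e (adjusted p = 0.289, 0.315, 0.213, 0.0876 and 0.635 from limma).

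Among related gene lists the class II genes moved most. Of 4 measured MHC class II genes limma called 3 as higher and none as lower, with a median log2 fold change of 1.28. These were H2-Ab1, H2-Aa and H2-Eb1, chains of the class II molecules that present to CD4 T cells, with 1.54, 1.39 and 1.17 (adjusted p = 0.00905, 0.00882 and 0.0118), while the peptide-loading chain H2-DMa had 0.51 (adjusted p = 0.0891). By array the class II mean was highest in AngII 6, AngII 8 and AngII 5 at 9.61, 9.52 and 9.50, and AngII 1 and AngII 2 were the lowest AngII arrays at 8.08 and 8.12, below vehicle 1 at 8.27.

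Of 12 measured other class I-like heavy chains limma called 1 as higher, H2-M3, which presents formylated peptides, and none as lower, with a median of 0.18. H2-M3 had a mean of 7.15 ± 0.183 (SD, n = 7) under vehicle and of 7.53 ± 0.219 (SD, n = 8) under AngII, which is 0.38 higher (limma adjusted p = 0.0368), and the call ended without any 1 of 8 arrays (4 of vehicle, numbers 2, 5, 6 and 7, and 4 of AngII, numbers 4, 5, 7 and 8), with a highest adjusted p of 0.0854. Fcgrt, the neonatal Fc receptor, and Mr1, which presents vitamin B metabolites, did not pass, with log2 fold changes of 0.07 and -0.24. None of the 10 measured partners in peptide loading and trimming was called in either direction, and their median was 0.02. Calr and Canx, chaperones of the heavy chain, had log2 fold changes of 0.02 and 0.05.

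The rest of the proteasome did not pass the test in either direction for any gene. This held for 12 constitutive subunits of the 20S core (median 0.02), 18 subunits of the 19S regulatory particle (median 0.03) and 8 activators and assembly factors (median -0.02). Psme1, an activator subunit that interferon gamma also induces, had a log2 fold change of 0.13 (95% interval -0.04 to 0.30, limma adjusted p = 0.368). Nor did any of 26 measured interferon receptors, kinases and transcription factors pass, with a median of 0.04 and a range from -0.21 to 0.60. The 95% interval lay above 0 for 7 of them, Irf7 (0.60, limma adjusted p = 0.0620), Stat2, Irf8 (0.37), Ciita (0.32), Ifnar2 (0.30), Irf9 (0.27) and Jak1 (0.12), and below 0 for Rfxank and Rela. Irf7 encodes a transcription factor of the type I interferon response. Rela, an NF-kappa B subunit, had a log2 fold change of -0.18 (limma adjusted p = 0.115) and Stat3, a signal transducer of cytokines, one of 0.08 (adjusted p = 0.344). Of receptors that read class I 2 of 14 were measured: Cd8b1, the coreceptor of CD8 T cells, at 0.18 (adjusted p = 0.412) and Pirb, an inhibitory receptor of myeloid cells, at 0.58 (adjusted p = 0.0540).

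**Figure D5:**
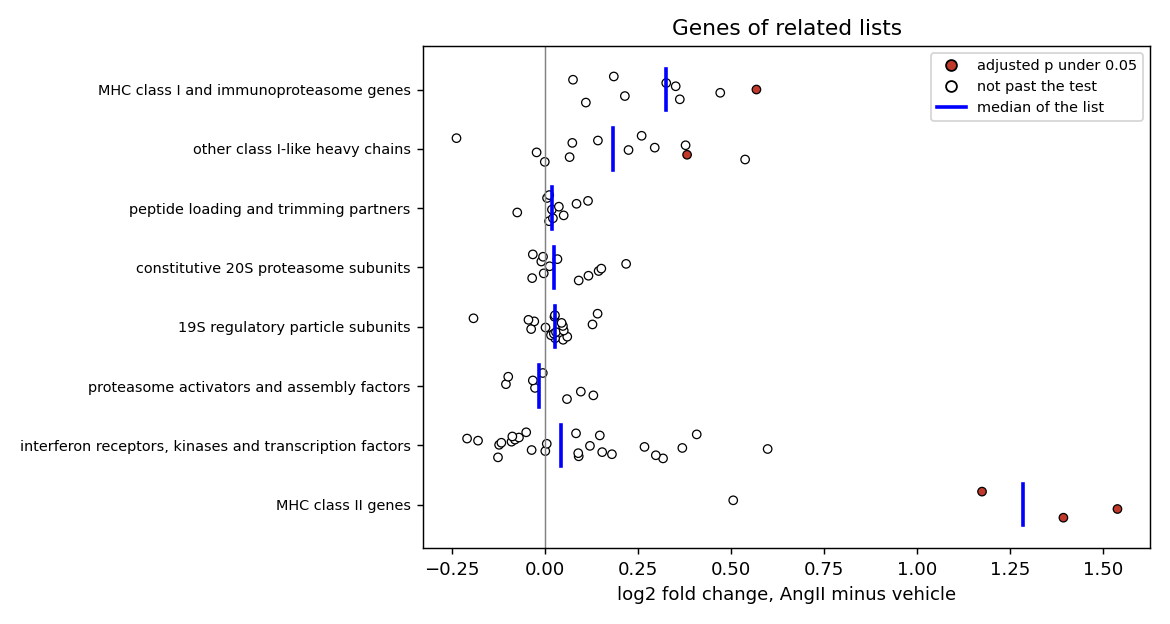
Log2 fold change of AngII over vehicle (horizontal axis) for each measured gene of the lists named on the vertical axis, with filled points for those that limma called and bars for list medians. The class II genes lie furthest right with a median of 1.28, the 9 class I and immunoproteasome genes have a median of 0.33, and the other proteasome lists lie around 0.

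Markers of other cells also differed between the arrays. Of 15 measured macrophage markers 9 were called as higher and none as lower in AngII arrays (limma). Among the 9 were the complement gene C1qa (0.62, adjusted p = 0.0129) and Aif1 (0.43, adjusted p = 0.0126), the latter among the dimmest 25% of probe sets. Of the 15 markers 2 had a log2 fold change below 0, Mertk at -0.18 (limma adjusted p = 0.262) and Cd163 at -0.0065 (limma adjusted p = 0.984). The macrophage mean was 7.32 to 7.97 in vehicle and 7.90 to 8.72 in AngII arrays (two-sided exact permutation test, p = 0.00109, adjusted p = 0.00326 over 9 marker lists). Among all 15 arrays the macrophage mean was highest in AngII 8, with AngII 5 at rank 2 and AngII 6 at rank 4. By the mean of the 9 class I and immunoproteasome genes, AngII 6, AngII 5 and AngII 8 held ranks 1, 2 and 3. AngII 8 was the highest AngII array for none of the 9 genes taken singly. With the macrophage mean as a covariate the log2 fold change stayed above 0 for 6 of the 9 genes (47.7% of probe sets), Psmb8 was at 0.23 and Psmb10 at 0.23 (adjusted p = 0.885 and 0.888 from limma), and limma called 1 probe set as higher and 1 as lower in all. The covariate and the treatment are tied to each other in these arrays, so their shares in the change cannot be told apart.

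The mean of 10 endothelial markers did not pass between the groups (7.73 to 9.19 in AngII and 8.11 to 8.96 in vehicle arrays; exact permutation test, p = 0.824), and limma called none of them. Among all 15 arrays it was highest in AngII 6 and lowest in AngII 2, the arrays that were most often highest and lowest for the 9 genes. With this mean as a covariate, chosen after these values were seen, limma called Psmb8 (0.54, adjusted p = 0.00251) and Psmb10 (0.44, adjusted p = 0.00247), and no other of the 9 genes. Over all probe sets it called 3% as higher and 3.24% as lower in that fit, more than without the covariate. The SE was 0.0820 for Psmb8 and 0.0665 for Psmb10, beside 0.149 and 0.143 without it, while neither log2 fold change was larger. The covariate follows the arrays that were extreme for these same genes, so the lower adjusted p-values are no further support for the 2 calls. The mean of 10 adipocyte markers ranged from 7.66 to 10.5 in vehicle and from 8.12 to 10.4 in AngII arrays, and with it as a covariate all 9 genes stayed above 0 (45.4% of probe sets) and Psmb8 was at 0.56 (limma adjusted p = 0.0594).

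Of 8 fibroblast markers 2 were higher, and their mean was 10.69 to 11.05 in vehicle and 11.06 to 11.49 in AngII arrays (exact permutation test, p = 0.000155, adjusted p = 0.00140). The mean of 8 smooth muscle markers was 11.18 to 11.59 in vehicle and 10.90 to 11.53 in AngII arrays, -0.19 from vehicle to AngII (exact permutation test, p = 0.0618, adjusted p = 0.111). Of these markers 7 of 8 had a log2 fold change below 0 and none was called by limma, the lowest being Lmod1 at -0.44 (adjusted p = 0.0628). AngII 5, one of the arrays high for the 9 genes, had the lowest smooth muscle mean of all arrays. AngII 6, the other such array, lay inside the vehicle range at 11.28.

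Lymphocytes and other leukocytes were covered thinly, with 2 of 12 T cell, 2 of 7 natural killer cell, 2 of 7 dendritic cell, 1 of 7 neutrophil and 0 of 7 B cell markers measured. The natural killer gene Nkg7 was higher at 0.43 (limma adjusted p = 0.0085), and limma called none of the others. Prf1, the other measured natural killer cell marker, had a log2 fold change of 0.06 (limma adjusted p = 0.746). The mean of Nkg7 and Prf1 was 0.24 higher in AngII arrays (exact permutation test, p = 0.000622, adjusted p = 0.00280). The neutrophil marker was 0.26 higher (exact permutation test, p = 0.00699, adjusted p = 0.0157). T cell and dendritic cell means had exact permutation p of 0.143 and 0.200. The part of fibroblasts, smooth muscle and leukocytes in the change of the 9 genes was not tested.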

How the data were processed

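The genes and lists were chosen with earlier results of these data known. The authors summarized each probe set by RMA in Affymetrix Expression Console and deposited the background-corrected, normalized values as log2 intensities for 15095 probe sets in 15 arrays, which were used as deposited. Of these, 13403 carry 1 gene symbol, 958 several and 734 none in the platform annotation. RNA kit and strain name differ between the labels and the paper's methods. The sex of the mice is not given in the sources used here. The number of arrays limits the precision.

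Groups came from the sample labels. AngII was tested against vehicle with limma 3.58.1 in R 4.3.3 (lmFit, eBayes), without covariates, and p-values of all probe sets were adjusted together by Benjamini-Hochberg. The script was first tested on simulated data. Exact permutation tests were two-sided and went through all splits of the arrays into groups of the same sizes, with numpy 2.4.6 in Python 3.11.15. Their p-values over ratios or marker lists were adjusted by Benjamini-Hochberg with scipy 1.17.1. The permutation tests of correlations used 100000 resamples. Significance analysis of microarrays (SAM), the test that the methods name, was rewritten here with 100 permutations as an alternative. It is not the study's software, and its count at Q of 0 varies with the permutations drawn. Besides the 10 genes, the text names for each list up to 4 called genes with the largest change and up to 2 others with the highest signal, Psmb5, Psmb6 and Psmb7, and the 5 genes with the most similar pattern. C1qa, Aif1, Mertk, Cd163, Nkg7, Prf1, H2-DMa, Psme1, Irf7, Irf8, Irf9, Ciita, Ifnar2, Jak1, Rfxank and Lmod1 were named after their values were seen. The other alternatives left out arrays in turn, used the naming series, the replicate number or marker means as terms, weighted the arrays, normalized further, set an intensity trend, left out the dimmest 25% of probe sets and took the probe set of the largest variance. Array medians lay between 7.16 and 7.28, and the arrays least like the others were AngII 8, AngII 5 and vehicle 1 (median r from 0.954 to 0.959).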

Additional observations from a re-analysis of the deposited data

Results flagged for a closer look

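Among 112 groups of values examined, 5 held an array that lay far from the others of its group by Dixon's criterion, which chance alone meets in about 1 in 20 groups. None of them was a value of the 9 class I and immunoproteasome genes or of their ratios. Vehicle 7 was the lowest of its group for the mean of the peptide loading and trimming partners, at 9.39 beside 9.55 in the next array, and for the chaperone gene Calr, at 11.23 beside 11.55. AngII 8 was the highest of its group for the mean of the measured receptors that read class I (7.38 beside 6.81) and for the 1 measured neutrophil marker (6.68 beside 6.32). AngII 5 was the highest for the mean of the fibroblast markers, at 11.49 beside 11.22.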

How the results depend on the processing

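Over 260 values of the 9 genes under the alternatives, 227 kept their direction and their side of the threshold, 15 lost the call (all of Psmb8, 14 by limma and 1 by SAM), 7 gained it and 11 changed sign. Limma called 1 of the 9 genes over all arrays. It called 0 without AngII 8, AngII 5 and vehicle 1, the 3 arrays least like the others, with the adipocyte or the macrophage mean as a covariate and in series A, 2 with the naming series as a block or the endothelial mean as a covariate (an alternative chosen after seeing the data), 3 in series B, and 0 to 3 when single arrays were left out. SAM called 0 at Q of 0 (Psmb8 had a q of 2.66%). Psmb8 had 0.49 (adjusted p = 0.123) without the 3 arrays, and Psmb10 had 0.51 (adjusted p = 0.0139) with the series as a block.

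The signs that changed in series A were those of B2m (-0.047), Tap1 (-0.088), Tap2 (-0.34), Tapbp (-0.014), Psmb9 (-0.059), H2-K1 (-0.026), Nlrc5 (-0.053) and the ratio of Psmb9 over Psmb6 (-0.11). With the macrophage mean they were those of B2m (-0.0067), Tap2 (-0.19) and H2-K1 (-0.0099), and without AngII 5 that of Tap2, which ran from -0.0079 to 0.17 with single arrays left out. In series A the ratios of Psmb8 over Psmb5 and Psmb10 over Psmb7 were 0.37 and 0.31 (exact permutation test, adjusted p = 0.3 for both). With 2 arrays against 3 this test could not pass whatever the values, so it decides nothing there. Without the 3 arrays Psmb8 over Psmb5 was 0.48 (exact, adjusted p = 0.0519). Psmb9 over Psmb6 passed with the series as a block (0.38, exact, adjusted p = 0.0325) and in series B (0.62, exact, adjusted p = 0.0159), and with single arrays left out it ran from 0.22 to 0.43.

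Over all probe sets 366 were higher and 439 lower. The higher ones numbered 207 in series B, 7 in series A, 557 with array weights, 234 with the adipocyte mean, 1 with the macrophage mean, 59 by SAM, and 170 to 509 with single arrays left out. The lower ones numbered 166, 1, 715, 247, 1, 50, and 174 to 689 in the same order, and 267 without the 3 arrays. H2-M3 lost its call in 14 of 28 alternatives. H2-Aa, H2-Ab1, H2-Eb1, C1qa and Aif1 lost it in 4 each and Nkg7 in 3, and none of these changed sign. The causes of these changes were not tested.

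Replicate numbers did not pair the arrays: same-numbered arrays deviated together at r from -0.456 to 0.416, over 0.1 for 4 of 7 pairs, and 1 of 7 correlated best with its own number. With the replicate number as a block, limma called 110 probe sets as higher, 81 as lower and 0 of the 9 genes (Psmb8 0.53, adjusted p = 0.0624).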
